A study of Homo sapiens with 8 samples.

Results

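The ATF4 axis is examined here through 10 genes: the transcription factors ATF4, ATF5, ATF3, DDIT3 (CHOP), CEBPB and CEBPG, and the stress effectors TRIB3, CHAC1, PPP1R15A (GADD34) and NUPR1. They were taken by name, as ATF4 itself, its basic leucine zipper (bZIP) partners and genes it acts on directly. Every one of the 10 was detected and tested, among 34290 genes with a count and 19280 that passed a filter on low counts. Earlier results of the same contrast were known when the 10 were chosen, so their difference between groups is given as a description. Test results for the 10, from fits over all genes, are printed below as part of that description. No support is drawn from them.

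RNA came from HEK 293T/17 cells, an easily transfected human line of embryonic kidney origin with the large T antigen of SV40. The 4 control libraries are labelled as normal HEK293T with the genotype control, and the 4 others as overexpressing KCNQ3, a potassium channel subunit, from a tagged open reading frame delivered with FuGene HD. Harvest was 48 hours after transfection. Control samples carry this transfection text as well, and what the controls were given, if anything, the labels do not say. Each group is a bulk culture of 1 line after transient transfection, and the share of cells that took up the construct is not given. The series calls the libraries biological replicates but names no separate cultures, so p-values reflect only variation among these 8 samples, part or all of it possibly technical.

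ATF4 is the main effector of the integrated stress response. When kinases phosphorylate the initiation factor eIF2, most translation slows, while upstream open reading frames in the ATF4 messenger RNA let ribosomes reach its coding sequence. ATF4 is therefore controlled to a large extent at translation, and its RNA level need not follow its activity. It pairs with C/EBP proteins on composite elements in its target genes, and ATF3, DDIT3, TRIB3, CHAC1 and the genes of asparagine synthesis and tRNA charging are among its known targets.

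Total estimated counts ran from 24020097 to 30734915 per library, and mitochondrial transcripts took 3.99% to 5.84% of them. KCNQ3 had 4, 5, 0 and 2 counts in control libraries 1 to 4 and 15283, 15874, 19709 and 18603 in overexpression libraries 1 to 4, which is the direction of the labels. Of 12 markers of the line listed for the check, 11 were tested. The quasi-likelihood test of edgeR with Benjamini-Hochberg adjustment called 0 of them, where it called 0.301% of all genes. DESeq2 also called 0, where it called 5.08% of genes. At those shares, 0 calls among 11 genes do not set the markers apart. Of the 11, 6 had an unadjusted edgeR p under 0.05, where 19.4% of all genes did. VIM stood at 759 ± 63.3 CPM in controls and 684 ± 38.9 after overexpression (SD, n = 4). The hepatocyte markers TTR, APOB and SERPINA1, the blood markers PTPRC, HBB and CD3E and the fibroblast markers COL1A2, DCN, POSTN and THY1 were at 0 in every library. Summed TPM was 2.51 to 3.81 in controls and 2.45 to 3.60 after overexpression over the 8 blood markers, 5.94 to 7.68 and 4.30 to 6.65 over the 9 fibroblast markers, and at most 0.301 and 0.337 over the 5 hepatocyte markers.

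The messenger RNA of the ATF4 axis was lower on average after KCNQ3 overexpression, by a small amount for ATF4 itself and by more for the other 9 genes. In CPM, counts as a share of the library's total, scaled with TMM factors, the ratio of group means ran from 0.577 for TRIB3 to 0.9005 for ATF4. All 10 log2 fold changes were below 0, where 47.4% of all genes tested were, with a median of -0.53 against 0.01 over all genes. The groups did not overlap for 5 of the 10 (ATF4, ATF5, DDIT3, TRIB3 and CHAC1), against 11.6% of all genes tested in either direction and 5.77% in the lower direction. In edgeR's fit over all genes 1 of the 10, ATF5, was past an adjusted p of 0.05, where 0.301% of genes were; that call held in 7 of 17 alternative settings and was lost on leaving out any 1 of control libraries 1 to 3 or overexpression libraries 2 to 4. Of the 10, 8 had an unadjusted p under 0.05, where 19.4% of genes did. DESeq2, run as an alternative, put 7 of the 10 past its threshold, all lower, where 5.08% of genes passed in either direction and 2.93% passed as lower. Since the choice of genes drew on this contrast, nothing is read from these counts. In bulk RNA, fewer cells expressing a gene and less RNA per cell cannot be told apart. On the length-scaled TPM values, 9 of the 10 were lower, ATF4 being the exception, and 3 did not overlap (ATF5, DDIT3 and TRIB3), where 6.85% of genes with a mean of at least 1 TPM did not.

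**Figure D1:**
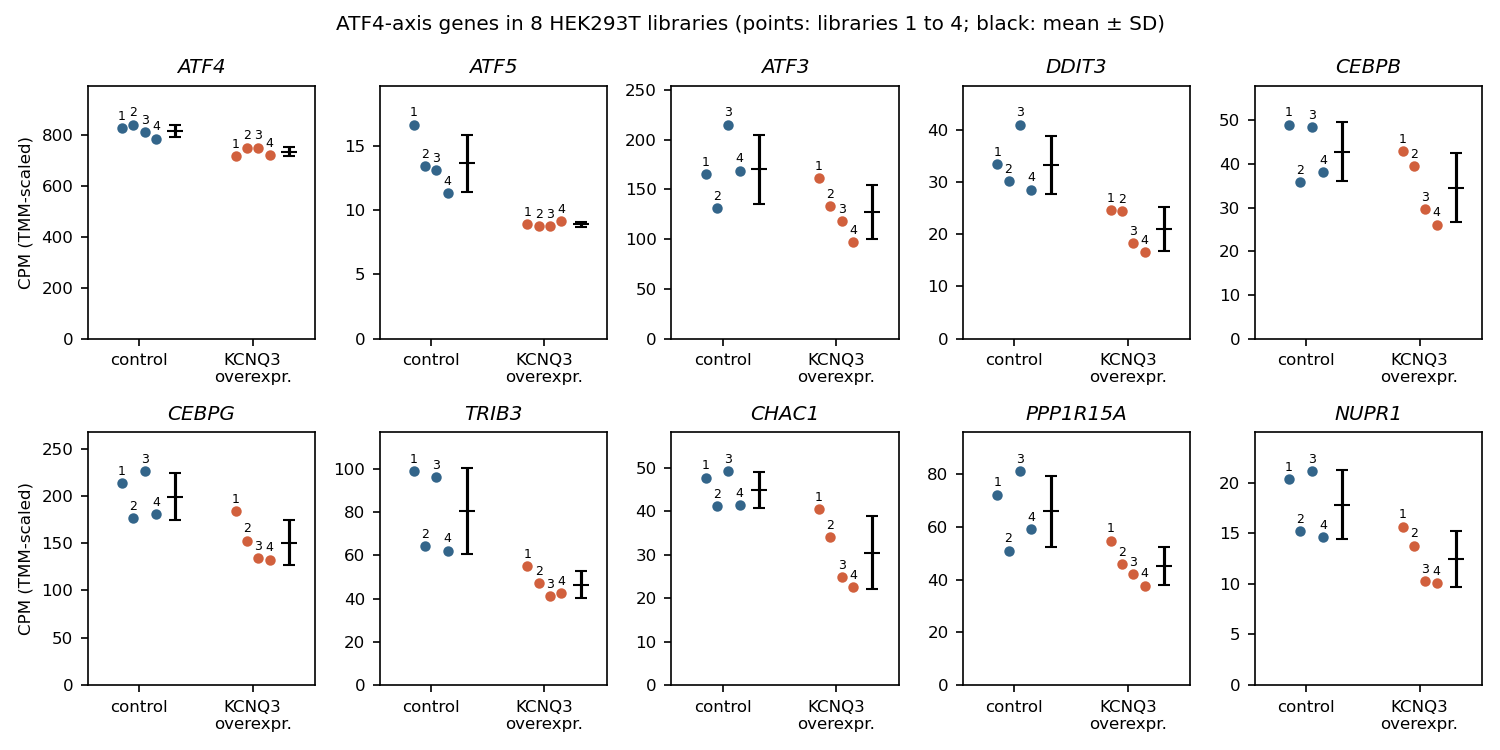
Level of each of the 10 genes in CPM (y axis, from 0) in the 4 control and 4 KCNQ3 overexpression libraries (x axis). Points are libraries with their replicate numbers, and the black bars are the mean and SD; ATF4 varies little against its level in both groups and ATF5 only after overexpression, while CEBPB, ATF3, CEBPG, PPP1R15A and NUPR1 overlap between groups.

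ATF4 (chromosome 22, 39519695 to 39522685, plus strand, GRCh38) encodes the bZIP factor at the head of the axis. Its level was 826, 841, 811 and 785 CPM in control libraries 1 to 4 and 717, 750, 750 and 721 CPM in overexpression libraries 1 to 4. The lowest control library lay above the highest overexpression library, by a margin that is small against the level itself. The means were 816 ± 23.6 and 734 ± 17.9 CPM (SD, n = 4), a log2 fold change of -0.15 (SE 0.04). In TPM the separation was absent: the libraries read 736, 729, 743 and 630 in controls and 650, 618, 820 and 782 after overexpression, and the difference on log2(TPM + 1) was 0.01. The scales part in overexpression libraries 3 and 4, which are below every control in CPM and are the highest of the 8 in TPM.

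The estimated split of ATF4 counts among its 3 annotated transcripts differed in the same pair of libraries. ATF4-201 is 2019 bases long, ATF4-202 is 1419 and ATF4-203 is 1910. All 3 hold the same coding sequence of 351 codons and differ ahead of it, with 882, 280 and 773 bases before the start codon in that order. ATF4-201 and ATF4-202 share their first 188 bases and then part, because ATF4-202 lacks 602 bases (chr22:39520752-39521353) that ATF4-201 retains. The 30 bases around that point are shown because they mark where the 2 forms part, with the bases after the last shared genome position in capitals.
ATF4-201: ggcttaagccatggcGTGAGTACCGGGGCG
ATF4-202: ggcttaagccatggcGCTTCTCACGGCATT

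ATF4-202 took 10.8%, 6.58%, 29.3% and 6.33% of the ATF4 counts in control libraries 1 to 4 and 22.1%, 18.3%, 96.4% and 96.6% in overexpression libraries 1 to 4. ATF4-201 took 68.4%, 34.0%, 58.0% and 57.0% in controls and 66.1%, 64.2%, 3.31% and 3.32% after overexpression. Overexpression libraries 3 and 4 thus stood apart from the other 6, and overexpression libraries 1 and 2 lay within the control range for both transcripts. The remaining form, ATF4-203, ranged from 12.7% to 59.5% in controls and from 0.121% to 17.5% after overexpression. The mean transcript length weighted by these counts was 1829 to 1941 bases in 6 libraries and 1440 in both overexpression libraries 3 and 4, and a shorter assigned length raises TPM at the same count. Reads shared by the 3 forms were divided by the authors' estimate, and whether the split reflects the RNA was not tested.

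**Figure D2:**
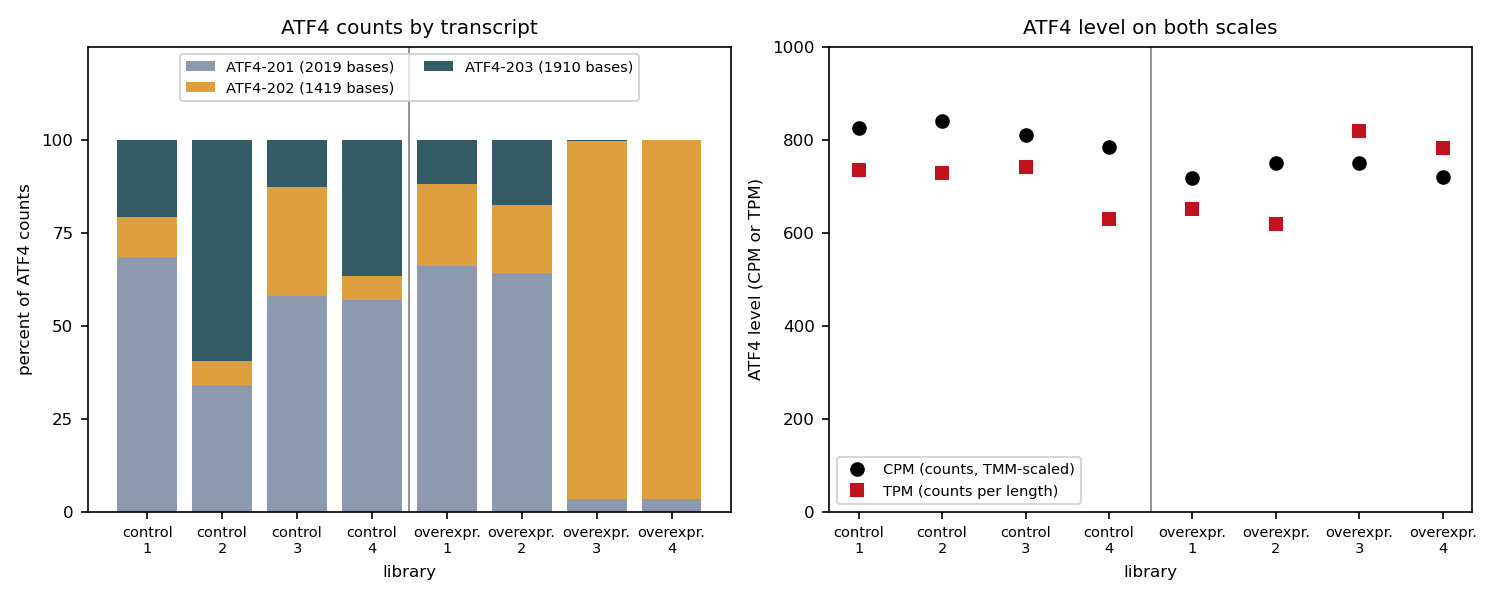
Left, share of ATF4 counts assigned to each annotated transcript (y axis, percent) in the 8 libraries (x axis); right, the ATF4 level in CPM (circles) and TPM (squares). ATF4-202, the shortest form, holds 96.4% and 96.6% in overexpression libraries 3 and 4, the libraries where TPM exceeds CPM, so ATF4 is lower after overexpression in CPM and not in TPM.

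Processed pseudogenes of ATF4 add a limit to its counts. ATF4P3 on chromosome 17 shares an identical stretch of 146 bases with an ATF4 transcript and stood at 161 ± 3.11 CPM in controls and 146 ± 2.54 after overexpression (SD, n = 4), a log2 fold change of -0.14 (SE 0.04). ATF4P4 on chromosome 11 shares up to 115 bases and had a log2 fold change of -0.15 (SE 0.04). The pseudogenes together held 21.2% to 22.2% of the summed counts of ATF4 and its 4 pseudogenes in every library, a nearly fixed fraction. Reads from ATF4 and from such copies cannot be told apart over identical stretches. With all of them summed, an alternative chosen after seeing the data, the log2 fold change was -0.15 (SE 0.04), the same as for ATF4 alone.

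ATF5 (chromosome 19, 49928702 to 49933935, plus strand) is the closest relative of ATF4 in this set, is likewise controlled by upstream open reading frames and is known for mitochondrial stress signalling. It read 16.7, 13.4, 13.1 and 11.3 CPM in controls and 8.93, 8.73, 8.73 and 9.16 CPM after overexpression. The overexpression libraries were close together, at 8.89 ± 0.207 CPM (SD, n = 4), and each control library lay above them. The log2 fold change was -0.62 (SE 0.10), and in TPM the libraries also did not overlap. The span of ATF5, introns included, overlaps those of NUP62 (1062 bases) and IL4I1 (838 bases) on the opposite strand. NUP62, a nuclear pore gene, had 2671 to 3980 counts per library against 211 to 514 for ATF5. No source used here says whether counting used strand. How far exons of the genes overlap was not measured, so whether reads were mixed there is not known.

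ATF3 (chromosome 1, 212565334 to 212620777, plus strand) is a stress-induced bZIP factor that acts largely as a repressor. It read 165, 131, 215 and 169 CPM in controls and 161, 133, 118 and 96.8 CPM after overexpression. The groups overlapped, with control library 3 the highest and overexpression library 4 the lowest. The log2 fold change was -0.42 (SE 0.20). ATF3-202 (2033 bases) held 88.5% to 93.5% of the counts in the other 7 libraries and 49.3% in control library 3, where ATF3-210 (581 bases) took 25.2% and ATF3-206 (1917 bases) took 16.1%. The TPM of ATF3 in control library 3 was accordingly 295, against 118 to 153 in the other controls.

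DDIT3 (chromosome 12, 57516588 to 57521737, minus strand) encodes CHOP, a bZIP factor that ATF4 induces and that promotes cell death under lasting stress. It read 33.4, 30.2, 41.0 and 28.5 CPM in controls and 24.6, 24.4, 18.3 and 16.6 CPM after overexpression. No overexpression library reached the lowest control, and the log2 fold change was -0.66 (SE 0.17). On the opposite strand the span of DDIT3, introns included, overlaps those of MBD6 and, over 982 bases, MARS1, the methionyl-tRNA synthetase. MARS1 is itself a listed ATF4 target and had 7137 to 11985 counts per library against 400 to 1031 for DDIT3. Its log2 fold change was -0.28 (SE 0.05), with edgeR's Benjamini-Hochberg adjusted p at 0.0584. Where exons of the pair overlap, reads cannot be told apart without strand, and the extent of exon overlap was not measured. Counts of DDIT3 were also split unevenly, with DDIT3-202 (872 bases) at 0% in control library 3 and overexpression library 3 and at up to 55.8% elsewhere.

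The C/EBP partners were lower on average but overlapped between groups. CEBPB (chromosome 20, 50190734 to 50192689, plus strand), an intronless gene of the acute-phase and stress responses, read 49.1, 35.9, 48.4 and 38.1 CPM in controls and 42.9, 39.5, 29.7 and 26.1 CPM after overexpression. Overexpression libraries 1 and 2 lay inside its control range and libraries 3 and 4 below it, and the log2 fold change was -0.31 (SE 0.19). CEBPG (chromosome 19, 33373330 to 33382686, plus strand), a C/EBP protein without an activation domain that pairs with ATF4, read 214, 176, 226 and 180 CPM in controls and 184, 153, 134 and 132 CPM after overexpression. Only overexpression library 1 reached its control range, and the log2 fold change was -0.40 (SE 0.13). CEBPB-AS1, an antisense gene whose span, introns included, overlaps 765 bases of CEBPB, had 32 to 57 counts per library.

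Among the effectors, TRIB3 and CHAC1 showed separated groups. TRIB3 (chromosome 20, 362835 to 397559, plus strand), a pseudokinase that binds ATF4 and AKT and restrains both, read 98.9, 64.2, 96.2 and 62.0 CPM in controls and 54.9, 47.0, 41.1 and 42.4 CPM after overexpression. Its controls fell into a higher pair (1 and 3) and a lower pair (2 and 4), both above every overexpression library. It had the lowest ratio of the 10 genes, with means of 80.4 ± 19.9 and 46.4 ± 6.26 CPM (SD, n = 4) and a log2 fold change of -0.79 (SE 0.20). CHAC1 (chromosome 15, 40952962 to 40956519, plus strand), which degrades glutathione, read 47.6, 41.1, 49.2 and 41.4 CPM in controls and 40.5, 34.0, 24.8 and 22.5 CPM after overexpression. Its groups were separated by less than 1 CPM, between control library 2 and overexpression library 1, and they overlapped in TPM. The log2 fold change of CHAC1 was -0.56 (SE 0.20).

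PPP1R15A and NUPR1 overlapped between groups. PPP1R15A (chromosome 19, 48872392 to 48876057, plus strand) encodes GADD34, which brings a phosphatase to eIF2 and so ends the response. It read 72.3, 51.0, 81.3 and 59.1 CPM in controls and 54.8, 45.9, 42.2 and 37.7 CPM after overexpression, and only control library 2 fell below an overexpression library, with a log2 fold change of -0.54 (SE 0.18). NUPR1 (chromosome 16, 28532708 to 28539174, minus strand), a small chromatin-associated stress protein, read 20.4, 15.2, 21.1 and 14.6 CPM in controls and 15.6, 13.8, 10.3 and 10.0 CPM after overexpression. Overexpression library 1 lay above control libraries 2 and 4, and the log2 fold change was -0.52 (SE 0.19). Its TPM depended on NUPR1-202, a 550-base form against 5491 bases for NUPR1-201, which took 0% of the counts in control library 2 and 7.91% to 18.8% elsewhere.

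Across the axis, the 10 genes have 40 transcripts in the files, of which 37 had a count and 24 were tested. Of the 24, 0 passed edgeR's test on transcripts with Benjamini-Hochberg adjustment over all 47129 transcripts tested, where 6 transcripts, 0.0127%, did; 7 of the 24 had an unadjusted p under 0.05, where 5.58% of transcripts did, and no other tool was run on transcripts.

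The levels per length, in TPM averaged over all 8 libraries, spanned from ATF4 at 714 ± 73.3 to ATF5 at 9.20 ± 2.66 (SD, n = 8). Next below ATF4 came ATF3 at 147 ± 65.4 and CEBPG at 75.7 ± 17.1, and these 3 kept that order in all 8 libraries. TRIB3 (49.7 ± 19.5), DDIT3 (47.3 ± 14.7), CHAC1 (40.8 ± 11.6), PPP1R15A (38.4 ± 11.3) and CEBPB (34.0 ± 8.10) lay close together. Within that stretch, TRIB3 exceeded DDIT3 in 5 of 8 libraries and CHAC1 exceeded PPP1R15A in 5 of 8, so neither pair kept its order across libraries. The SDs here pool both groups and so include the difference between them. NUPR1 (9.38 ± 3.65) and ATF5 were the lowest, in that order in 6 of 8 libraries.

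Within a group, ATF4 varied less between libraries than the other genes, apart from ATF5 after overexpression. The coefficient of variation of CPM was 2.90% in controls and 2.44% after overexpression for ATF4. For the 8 genes other than ATF4 and ATF5 it ran from 9.34% (CHAC1) to 24.8% (TRIB3) in controls and from 13.5% (TRIB3) to 27.4% (CHAC1) after overexpression. ATF5 had 16.3% in controls and 2.33% after overexpression.

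These 8 genes were also high and low in the same libraries. To remove the difference between groups, each library's log2(CPM + 1) was taken as its deviation from its own group mean. Over the 8 libraries, the 28 pairs among ATF3, DDIT3, CEBPB, CEBPG, TRIB3, CHAC1, PPP1R15A and NUPR1 had Pearson correlations of 0.67 to 0.97 with a median of 0.90, and Spearman correlations of 0.45 to 0.95 with a median of 0.83. Without the 2 libraries farthest from the median of the genes' mean deviation (overexpression library 1 and control library 3), Pearson's r ran from 0.36 to 0.98 with a median of 0.83. The points of these correlations share each library's RNA, depth and scaling factor, the split into 8 and 2 genes was made after seeing the values, and they are given without a test.

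The correlation of ATF4 with each of the 8 genes ran from -0.32 to 0.09, and from -0.04 to 0.54 without the same 2 libraries. For ATF5 the correlations with the 8 genes ran from -0.12 to 0.62 with a median of 0.27 (Spearman's median -0.05), and from -0.10 to 0.87 without the same 2 libraries. ATF5 and ATF4 had an r of 0.43 and a rho of 0.14.

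**Figure D3:**
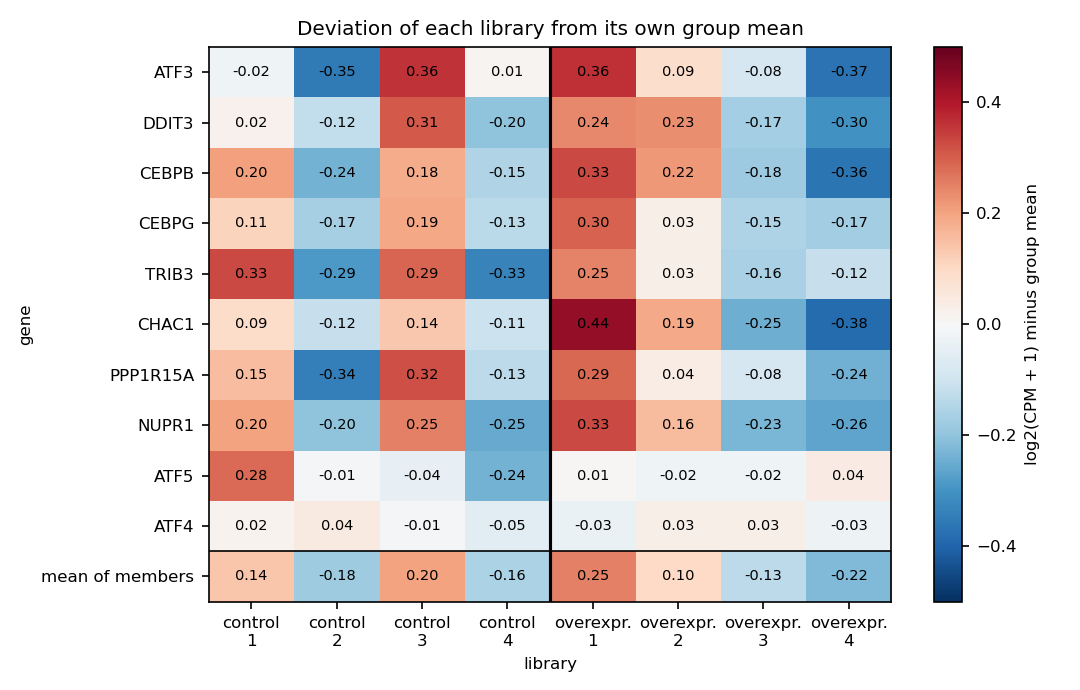
Deviation of each library (x axis) from its own group mean for each gene (y axis), in log2(CPM + 1), with red above and blue below the mean; the bottom line is the mean over the 10 genes. Control libraries 1 and 3 and overexpression libraries 1 and 2 are mostly red, control libraries 2 and 4 and overexpression libraries 3 and 4 mostly blue, and ATF4 stays between -0.05 and 0.04.

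The same few libraries set the extremes. Overexpression library 1 was the highest of its group for 8 of the 10 genes and overexpression library 4 the lowest for 7. Among controls, library 3 was the highest for 6 genes and library 1 for 3, while libraries 2 and 4 were the lowest for 5 genes each. The mean deviation over the 10 genes was 0.14, -0.18, 0.20 and -0.16 in control libraries 1 to 4 and 0.25, 0.10, -0.13 and -0.22 in overexpression libraries 1 to 4. KCNQ3 itself stood at 573, 657, 735 and 771 CPM in those overexpression libraries, and the mitochondrial share was 4.82%, 4.93%, 5.34% and 5.84%. The library with the least KCNQ3 and the smallest mitochondrial share thus had the highest ATF4-axis deviation, and the library with the most of both had the lowest. In controls the mitochondrial share was 4.65%, 3.99%, 4.15% and 5.59% and did not follow that order. The part of either quantity in the result was not tested.

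Genes outside the set with the most similar pattern were found among 11179 genes with a mean of at least 10 CPM, by Pearson's r with the mean deviation of the 10 genes over the 8 libraries. Among the most similar were POLR3C (0.993), NR3C1 (0.990), KCMF1 (0.989), CHEK1 (0.986) and ANAPC1P2 (0.982). An r above 0.9 was reached by 157 genes (1.40%), and one below -0.9 by 102 (0.912%). These 5 genes had lower means after overexpression, and their edgeR adjusted p ran from 0.0617 to 0.343. CHEK1, a checkpoint kinase, had the smallest of these and stood at 86.0 ± 3.56 and 73.6 ± 3.15 CPM (SD, n = 4).

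The promoters of the set were searched for the elements by which stress factors act. RefSeq windows of 250 bases before to 50 after each annotated start (GRCh38.p14) were matched for 9 of the 10 genes, 18 windows in all; NUPR1 was not matched. The search covered both strands and the motifs TGATGNAA (the C/EBP-ATF composite element), TGACGTCA (the cyclic AMP response element, the same on both strands) and the ER stress response element. The composite element was found in windows of 3 genes, ATF3 (position -191 from a start), CHAC1 (-209, on the other strand) and CEBPG (-42), against 3.62% of all 35116 windows and 4.46% of genes. The cyclic AMP response element was found in PPP1R15A (-58), against 1.85% of windows. The ER stress element was found in none of the 18, against 0.0769% of windows. No window of the set held more than 1 of these motifs. The stretches of CHAC1 (chr15:40953251-40953280, plus strand, inside an annotated exon of CHAC1-201), CEBPG (chr19:33373993-33374112, plus strand) and PPP1R15A (chr19:48872301-48872391, plus strand) are shown to set the matches in their context, with the motif in capitals; the CHAC1 motif reads TGATGCAA on the other strand.
CHAC1: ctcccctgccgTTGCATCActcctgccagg
CEBPG: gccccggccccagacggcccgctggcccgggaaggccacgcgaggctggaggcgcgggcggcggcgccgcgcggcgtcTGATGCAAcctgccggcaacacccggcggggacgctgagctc
PPP1R15A: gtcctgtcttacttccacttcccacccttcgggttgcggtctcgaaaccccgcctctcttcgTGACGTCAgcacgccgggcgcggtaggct

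The 4 genes with a match had log2 fold changes of -0.40 to -0.56, and TRIB3 and DDIT3, with the lowest log2 fold changes, had no match in these windows. A match is a run of letters, not a measured site.

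Known ATF4 targets outside the 10 genes were also lower on average. Of 45 such genes, chosen by role, all were tested and 44 had a log2 fold change below 0, ALDH18A1 (0.11) being the exception, with a median of -0.27 against 0.01 over all genes. By edgeR's quasi-likelihood test, adjusted over all genes by Benjamini-Hochberg, 6 fell and 0 rose, where 0.192% of genes fell, and 24 did not overlap between groups, where 11.6% of all genes did not. ASNS, asparagine synthetase, fell from 638 ± 33.7 to 468 ± 15.6 CPM (SD, n = 4), a log2 fold change of -0.45 (SE 0.05, edgeR adjusted p = 0.00783), and was lower in 4 of 4 overexpression libraries than in any control. The tRNA synthetase genes CARS1 (-0.40, SE 0.05, edgeR adjusted p = 0.0204), AARS1 (-0.36, SE 0.06, adjusted p = 0.0348) and IARS1 (-0.24, SE 0.04, adjusted p = 0.0382) also fell, as did PCK2 (mitochondrial phosphoenolpyruvate carboxykinase) and GARS1. The list was written with earlier results of these data known and is not independent evidence of its direction. The call of ASNS held without any 1 library; leaving out 1 library in turn left 1 to 21 of the 45 past the threshold, 21 without overexpression library 1, 13 without control library 4 and 1 or 2 without any other.

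Per library, ASNS read 646, 666, 650 and 589 CPM in controls and 445, 478, 476 and 474 CPM after overexpression, so overexpression library 1, the highest for 8 of the 10 ATF4-axis genes, was the lowest for ASNS. IARS1 read 781, 770, 764 and 725 CPM in controls and 647, 646, 640 and 637 CPM after overexpression. Over the whole list of 45, the mean deviation nevertheless followed that of the 10 genes (Pearson's r 0.89 over the 8 libraries, Spearman's rho 0.86, r 0.81 without the 2 farthest libraries), and 39 of the 45 genes had an r above 0.

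The relatives of the 10 genes among bZIP factors had a median nearer to 0. Of 42 listed, 40 were tested, 32 were below 0, the median was -0.10, and 0 passed edgeR's test (16 had an unadjusted p under 0.05, and DESeq2 called 3). Over all genes, 47.4% were below 0, 19.4% had an unadjusted p under 0.05, edgeR called 0.301% and DESeq2 5.08%. At that edgeR share, 0 calls among 40 genes do not set the list apart. JDP2 is on this list and also among the 45 ATF4 targets. XBP1, the spliced factor of the unfolded protein response, stood at 261 ± 29.2 and 225 ± 32.5 CPM (SD, n = 4), and JUN, an AP-1 subunit, at 412 ± 61.8 and 369 ± 55.9 CPM. Their mean deviation followed the 10 genes within groups, at an r of 0.90 (rho 0.98, r 0.79 without the 2 farthest libraries).

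Genes upstream of ATF4 were centred near 0. Among 21 genes of eIF2 phosphorylation and its reversal, which include the 4 eIF2 kinases, 11 were below 0, the median was -0.01, and 0 passed edgeR's test (3 had an unadjusted p under 0.05, and DESeq2 called 1). The shares over all genes were 47.4% below 0, 19.4% at that unadjusted p, 0.301% called by edgeR and 5.08% by DESeq2. EIF2S3, a subunit of eIF2, stood at 683 ± 14.97 and 660 ± 20.7 CPM (SD, n = 4). The list's mean deviation had no stable relation to that of the 10 genes, with an r of 0.24 over the 8 libraries, a rho of -0.05 and an r of -0.26 without the 2 farthest libraries. These values concern RNA, and the phosphorylation of eIF2 was not measured.

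The ATF6 and XBP1 branch of the unfolded protein response had a median slightly above 0. Of 17 genes under ATF6 and XBP1, mostly ER chaperones, 6 were below 0, the median was 0.05, and 0 passed edgeR's test (4 had an unadjusted p under 0.05, and DESeq2 called 0). Among all genes, 47.4% were below 0, 19.4% had such an unadjusted p, edgeR called 0.301% and DESeq2 5.08%. CALR, a chaperone of the ER lumen, stood at 592 ± 20.2 and 628 ± 57.0 CPM and CANX, its membrane-bound relative, at 1141 ± 28.2 and 1163 ± 67.1 CPM (SD, n = 4). Over the 8 libraries, the mean deviation of this list had an r of -0.63 with that of the 10 genes. Spearman's rho was -0.62, and r was -0.73 without the 2 farthest libraries. The list ran against the 10 genes in overexpression libraries 1 to 4, at -0.09, -0.06, 0.06 and 0.09. In control libraries 1 to 4 it read -0.03, 0.01, 0.04 and -0.02, with the same sign as the 10 genes in libraries 3 and 4. Gene by gene, 5 of the 17 had an r above 0, with a median r of -0.33.

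The neighbourhood of the axis was completed by 3 shorter lists, and 0 of their members passed edgeR's test, where 0.301% of all genes did. For the counts that follow, 47.4% of all genes were below 0, 19.4% had an unadjusted p under 0.05 and DESeq2 called 5.08%. Among 8 death and redox genes linked to DDIT3, 5 were below 0 with a median of -0.13 (3 with an unadjusted p under 0.05, 1 called by DESeq2); PMAIP1, which encodes the BH3-only protein NOXA, stood at 256 ± 25.2 and 219 ± 19.5 CPM, and TXNDC5, a protein disulfide isomerase, at 300.2 ± 3.72 and 317 ± 18.1 CPM (SD, n = 4). Among 8 mitochondrial stress genes, 5 were below 0 with a median of -0.02 (2 with an unadjusted p under 0.05, 2 called by DESeq2), and the chaperonin gene HSPD1 stood at 709 ± 37.5 and 768 ± 38.1 CPM. In the last list, 13 genes were tested, most of them for proteins that bind or degrade products of the 10 genes. CHAC2 and GGCT, also on it, fall outside that description. Of the 13, 8 were below 0 with a median of -0.04 (3 with an unadjusted p under 0.05, 0 called by DESeq2). AKT1, the kinase that TRIB3 binds, stood at 121 ± 3.87 and 117 ± 6.17 CPM. Within groups, the mean deviation of the DDIT3-linked list followed that of the 10 genes (r 0.93, rho 1, r 0.88 without the 2 farthest libraries), as did that of the mitochondrial list (r 0.73, rho 0.71, 0.70 without them). Gene by gene, 5 of 8 had an r above 0 in each of these lists, with median r of 0.85 and 0.32. The mitochondrial list shares LONP1, GDF15 and FGF21 with the 45 ATF4 targets, so it is not separate from them. For the last list, mostly binding and degrading proteins, the r was -0.16 (rho -0.24, r -0.51 without the 2 farthest libraries).

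**Figure D4:**
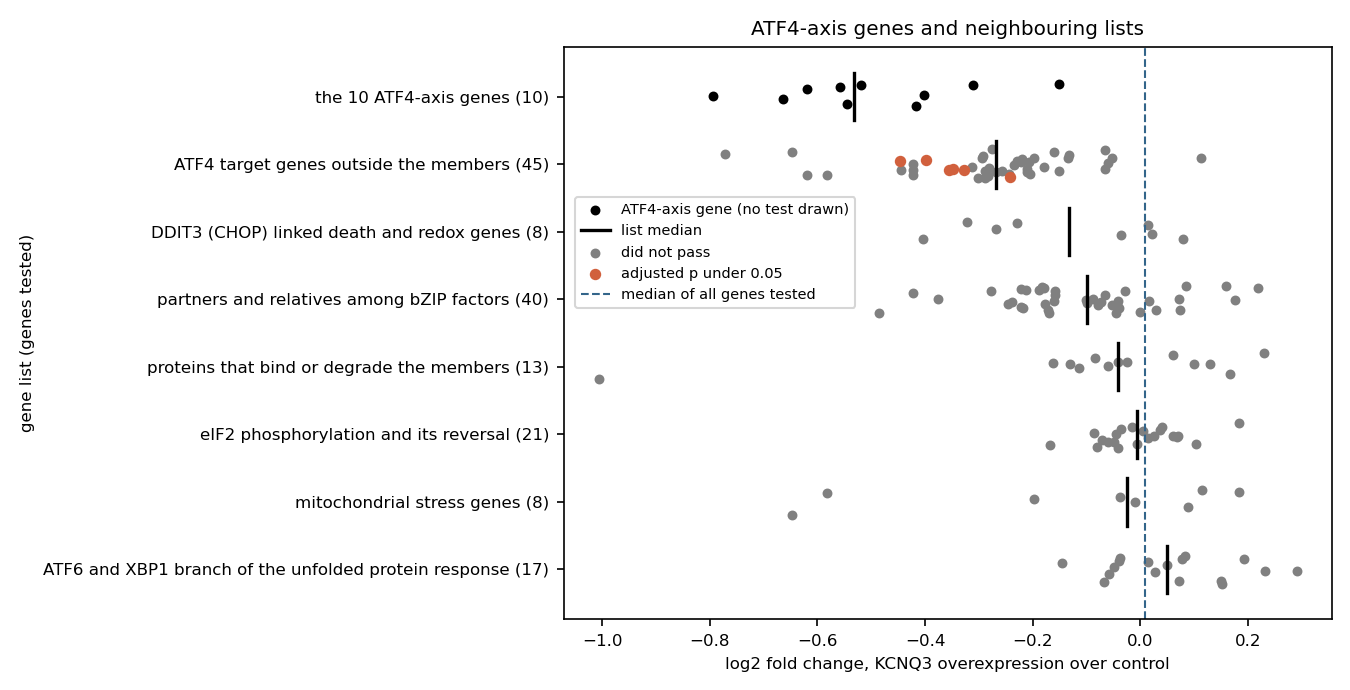
Log2 fold change, overexpression over control (x axis), of the 10 ATF4-axis genes and of the genes tested in 7 neighbouring lists (y axis). Points are genes, orange where a gene of the 7 lists passed an adjusted p of 0.05 in edgeR's test. The 10 ATF4-axis genes are all drawn black without a test, also ATF5, which was past that threshold. Black lines are list medians and the dashed line is the median of all genes tested (0.01). The medians are -0.53 for the 10 genes, -0.27 for other ATF4 targets and between -0.13 and 0.05 for the remaining lists; these are CPM-based values, and ATF4 itself is 0.01 on the TPM scale.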

How the data were processed

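RNA sequencing of 4 control and 4 KCNQ3 overexpression libraries was analysed from 2 deposited tables. The authors deposited whole-number estimated counts per transcript and TPM per transcript. Per the submitters' processing notes, HISAT2 2.1.0, StringTie 2.1.0, SAMtools 1.9, cutadapt 2.8 and FastQC 0.11.5 were used with GRCh38.p13; the annotation release and strandedness are not given there. Estimated counts divide reads between transcripts and similar copies, which can move a gene's isoform shares and TPM.

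GENCODE release 29 supplied the gene of each transcript: 205804 of 227751 identifiers matched, holding 98.7% to 98.9% of each library's counts. Summed counts were tested with edgeR 4.0.16 (R 4.3.3; quasi-likelihood, robust, TMM, filterByExpr with minimum count 10 and total 15, Benjamini-Hochberg threshold 0.05), 4 against 4, on 24020097 to 30734915 counts per library. The scripts were tested on simulated data. Within a group, the 12 replicate pairs had a chi-square per degree of freedom of 9.72 to 18.6 (genes with at least 20 counts), so none was a repeat deposit. DESeq2 1.42.0, limma 3.58.1 on log2(TPM + 1) and log2(TPM + 0.1) for genes with a mean of at least 1 TPM, other scalings and filters, a replicate block and leaving out each library were alternatives. Groups came from the sample labels.

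The 10 genes, the lists and the tests were chosen with earlier results of these data known. Named genes were the 10, KCNQ3, ATF4 pseudogenes, up to 4 called genes per list by smallest p (or the 2 most abundant) and the 6 genes most correlated with the 10; not all of these are printed, and some are not reported here. PCK2, GARS1, ALDH18A1 and MARS1 lie outside that rule and were named after their values were seen. Promoter letters are RefSeq's and transcript letters GENCODE's. Protein sequences were not used here.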

Additional observations from a re-analysis of the deposited data

Results flagged for a closer look

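ATF4 in TPM had 1 control library far from the others: control library 4 read 630, against 729 to 743 in control libraries 1 to 3, a gap of 0.881 of the group's whole range. It was the only one of 40 groups of 4 libraries (10 genes, 2 groups, CPM and TPM) in which a library stood so far apart. Chance flags about 1 in 20 such groups, so 1 flag in 40 is not more than that rate. The 40 groups are not independent, since CPM and TPM come from the same libraries. In CPM the same library read 785, against 811 to 841.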

How the results depend on the processing

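All 10 genes kept a negative log2 fold change in each of 17 alternatives, except ATF4, which was 0.00935 on log2(TPM + 1) and 0.00935 on log2(TPM + 0.1). The median of the 10 (-0.53) ran from -0.64 to -0.43 and that of the 45 other ATF4 targets (-0.27) from -0.32 to -0.24 over the fits without 1 library. No setting moved the median of all genes by over 0.1. How many genes were called did depend on the setting, and the cause was not tested. Over all genes 58 were called, against 35 without scaling, 733 with DESeq2, 4 in each TPM fit and 8 (without overexpression library 2) to 378 (without overexpression library 1) with 1 library left out, 194 without control library 4. Among the 10 genes 1 (ATF5) was called, against 0 without scaling, 7 with DESeq2 (which called 5.08% of 14420 genes), 0 in each TPM fit and 0 to 1 with 1 library left out (1 without control library 4 or overexpression library 1). ATF5 was called in 7 of the 17, with an adjusted p between 0.000661 and 0.241. Among the 45 targets 6 were called, against 3 without scaling, 26 with DESeq2, 0 in each TPM fit and 1 to 21 with 1 library left out; ASNS lost its call only in the TPM fits.

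Replicate numbers are shared by the groups, but same-numbered libraries did not deviate together (correlations of 0.07, -0.03, -0.05 and -0.01). With a replicate block, 86 genes, 0 of the 10 and 4 of the 45 targets were called; ATF5 had an adjusted p of 0.0540. The least abundant genes, ATF5 and NUPR1, rest on 211 to 514 and 242 to 628 counts per library.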

Other observations

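Genes that ran against the ATF4 axis within groups were looked for after the values were seen, with the same measure and the same 11179 genes. HMGCS1, an early enzyme of cholesterol synthesis, had the most negative correlation (Pearson's r -0.989 over the 8 libraries, -0.989 without the 2 farthest), at 62.0, 73.6, 62.5 and 74.3 CPM in control libraries 1 to 4 and 66.9, 73.1, 84.2 and 85.8 CPM in overexpression libraries 1 to 4. TFRC, the transferrin receptor, had an r of -0.971 and stood at 100.1 ± 11.1 CPM in controls and 135 ± 22.3 after overexpression (SD, n = 4; log2 fold change 0.43, SE 0.13, adjusted p = 0.146 by edgeR's quasi-likelihood test). Control libraries 1 and 3 and overexpression library 1, the highest of their groups in TRIB3 and CEBPG, were thus the lowest in HMGCS1. These values are a description of 8 libraries that share depth and scaling, picked as extremes.

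EP300, an acetyltransferase that binds ATF4, had the lowest log2 fold change of the 7 neighbouring lists (-1.01) and was picked out after its value was seen. Its level was 66.6 ± 19.4 CPM in controls and 33.2 ± 22.8 after overexpression (SD, n = 4), with a standard error of 0.49, an adjusted p of 0.325 by edgeR's test, and overlapping groups.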
